A study of Mus musculus with 65 samples.

Results

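Thigh skeletal muscle was compared between mice of 4 and 28 months, on 10 of the 65 exon arrays of a study of aging and alternative splicing in mouse tissues. The arrays were chosen by sample title, 5 of muscle at 4 months and 5 of muscle at 28 months. All animals were untreated wild-type males of the strain C57BL/6J, and no mouse gave more than 1 muscle array, so that the 5 arrays of an age are 5 animals. The value of a gene is the mean log2 signal over its probe sets, small groups of probes that lie mostly within 1 exon, and a difference of 1 on this scale is 2-fold. A change is the mean at 28 months minus the mean at 4 months, given ± its standard error (SE, n = 5 per age), with an adjusted p from limma over 15830 genes. A gene is said to have risen or fallen where that adjusted p was below 0.05. Single arrays are listed in the order of the replicate numbers 1 to 5. A further 5 muscle arrays from 18-month-old mice serve to place a change in the life span. The identifiers of these mice belong to the series of the 28-month mice, which 4 of the 5 mice at 4 months did not share. In a change between 4 and 18 months, age and identifier series therefore cannot be told apart except through 1 animal. Amounts given as present at 18 months carry this limit.

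Muscle fibers are long cells with many nuclei, and each is slow or fast by the contractile and calcium-handling proteins that it holds. A motor nerve contacts the fiber at the neuromuscular junction, where acetylcholine receptors gather. Capillaries, matrix-forming cells, fat cells and satellite cells, the stem cells that repair fibers, lie between the fibers. Old mammalian muscle is known for loss of mass and force and for fibers that have lost their nerve, and a fiber without its nerve turns on a known set of genes. Whole tissue was measured, so fewer cells of a type and less RNA per cell cannot be told apart in any of these values.

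The markers of the tissue were in place. All 12 markers of muscle fibers, among them Ckm, the muscle creatine kinase, and Acta1, skeletal actin, were higher on each of the 10 arrays than the 4-month mean of skin, bone, thymus or adipose tissue. The mean of these markers spanned 12.10 to 12.43 at 4 months and 11.97 to 12.25 at 28 months, and 0 of the 12 passed the test. Of 12 epidermal markers, 6 lay below 3.55, the lower quartile of gene values in muscle, including Krt14 and Lor, as did 4 of 9 markers of bone-forming cells (Dmp1, Ibsp, Mepe and Sp7). Of the 4-month mice, 4 carried identifiers of a series, 6JA, that no 28-month mouse carried, and only replicate 1 belonged to the series A of the 28-month mice. Age and identifier series therefore cannot be told apart except through that 1 animal, and that animal stood apart: its median correlation with the other 4-month arrays was 0.975, against 0.989 to 0.992 for those. The correlations at 28 months were 0.958 to 0.976, and replicate 1 at 28 months stood out by its neutrophil and erythroid markers. Where a comparison without the 6JA mice is given, 1 array remained at 4 months and its spread was taken to be that of the other groups.

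In total 1637 genes (10.3% of those tested) rose and 1308 (8.26%) fell between 4 and 28 months. With a change of at least 2-fold required as well, 275 genes (1.74%) were differentially expressed (DE) and higher, and 181 (1.14%) were DE and lower. The median change of all genes was 0.09. Of all genes, 3.49% rose and 4.49% fell in the 10 muscle arrays alone, and 2.34% rose and 2.25% fell with the 6JA series as a term. Counts of list members under those settings are to be set against these shares. Without the 6JA mice fewer of all genes passed than in either, so list counts there have a lower background too. With 1 array left at 4 months, a low list count there does not show that a change was absent. The arrays of both ages did not overlap for 823 genes that were higher (5.2% of all genes) and 718 that were lower (4.54%), and for 251 of the 456 DE genes. In a fit of the 10 muscle arrays alone, 155 genes were DE and higher and 160 lower, and without the 6JA mice 69 were higher and 103 lower, so that the surplus of higher genes was not kept. Replicate 1 at 4 months lay above every 28-month array in 154 of the 181 DE genes that were lower (85.1%) and below every one in 134 of the 275 that were higher (48.7%). Of the 95 genes named by rule that passed the test, 67 also passed in the 10 arrays alone and 28 without the 6JA mice, and 91 kept their sign there.

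The highest fitted change was in Sln, which encodes sarcolipin, a small protein that slows calcium uptake into the fiber's store. Its level was 3.25, 2.77, 2.91, 2.81 and 2.80 at 4 months and 10.91, 7.72, 9.82, 7.72 and 9.42 at 28 months. The 4-month arrays were all below the lower quartile of gene values and the 28-month arrays all above the upper quartile of 6.95, with no overlap. Whether the 4-month signals were above background was not tested, so the size of the difference may be understated. The change was 6.21 ± 0.66 (adjusted p = 9.33e-10), and 5.87 without the 6JA mice (adjusted p = 0.00144). At 18 months Sln was still at 3.06 to 4.31, so the change between 4 and 18 months was 0.78 and that between 18 and 28 months 5.43. Among other calcium-handling genes, Orai1, the pore of the calcium entry channel of the cell surface, went from 6.36, 6.37, 6.79, 6.49 and 5.98 to 5.22, 5.72, 5.25, 5.46 and 5.43. These values did not overlap, and the fall of 0.98 (SE 0.15) also passed without the 6JA mice (adjusted p = 0.0477). Stim1, the calcium sensor that opens Orai1, fell by 0.47, and Stac3, which ties the voltage sensor to calcium release, fell by 0.998. Of 24 calcium-handling genes 2 rose and 3 fell, with a median of -0.18.

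**Figure D1:**
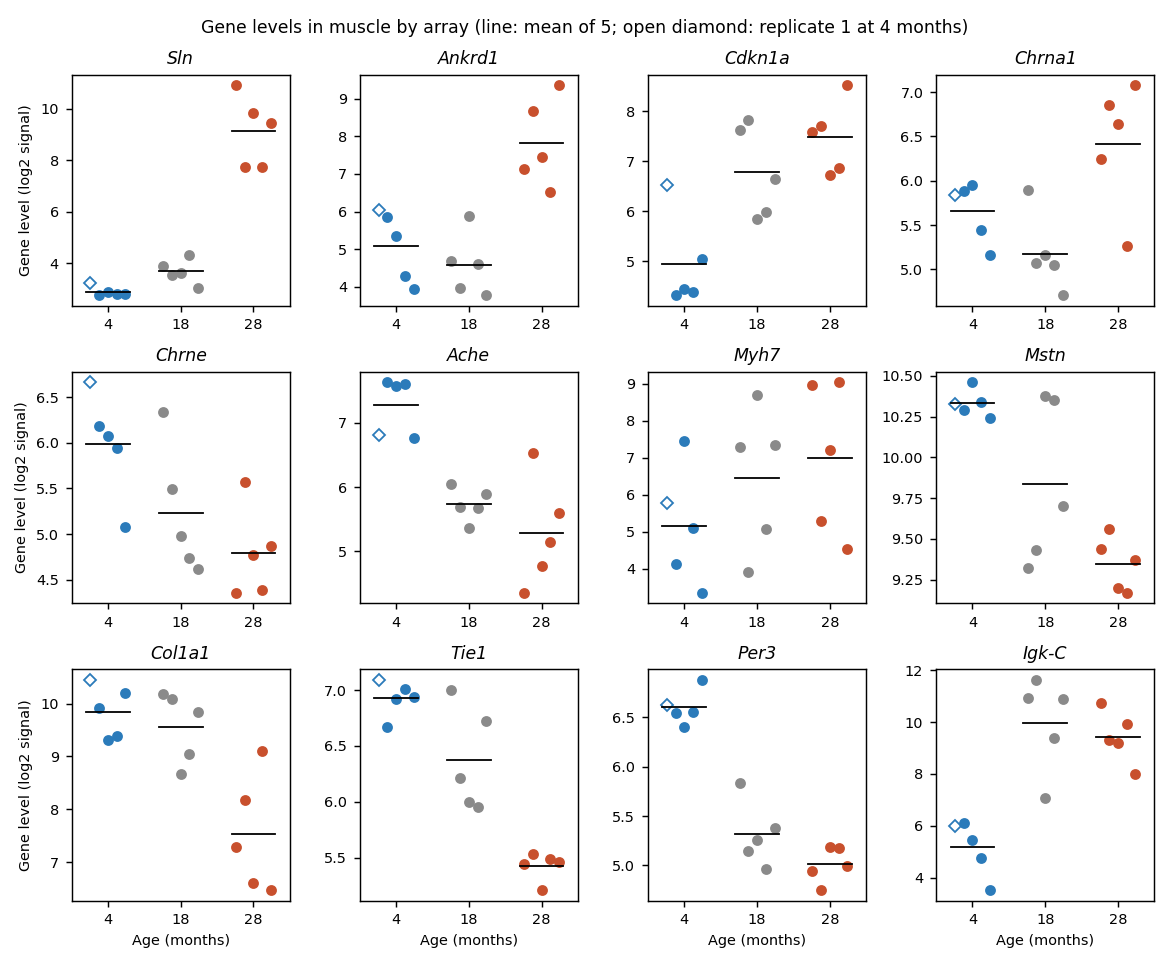
Level of 12 genes (log2 signal, vertical axes) on each muscle array at 4, 18 and 28 months, with a line at the mean of 5 arrays and an open diamond for replicate 1 at 4 months. Sln, Ankrd1, Cdkn1a, Mstn, Col1a1, Tie1, Per3, Ache and Igk-C do not overlap between 4 and 28 months, whereas Chrna1, Chrne and Myh7 do.

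At the neuromuscular junction 1 of 17 genes rose and 4 fell (median -0.24), and the subunits of the acetylcholine receptor did not move as one. Chrna1, the subunit that binds acetylcholine, was at 5.84, 5.89, 5.95, 5.45 and 5.16 at 4 months and at 6.25, 6.85, 6.64, 5.26 and 7.08 at 28 months. Chrne, the subunit of the mature receptor, was at 6.66, 6.18, 6.07, 5.94 and 5.08 at 4 months and at 4.36, 5.57, 4.77, 4.39 and 4.87 at 28 months. For Chrna1 4 of the 28-month arrays lay above all 4-month arrays and replicate 4 did not. For Chrne replicate 5 at 4 months lay below replicate 2 at 28 months. Chrna1 rose by 0.76 ± 0.18 (adjusted p = 0.00281) and Chrne fell by 1.20 ± 0.19 (adjusted p = 7.78e-06). The call of Chrne held without the 6JA mice (-1.87, adjusted p = 0.000218), while that of Chrna1 did not (0.58, adjusted p = 0.372), nor in the 10 arrays alone (adjusted p = 0.146). The subunit of the embryonic receptor, Chrng, changed by 0.21 (adjusted p = 0.259) and stayed at 3.46 to 3.99 on these arrays. The 250 bases before the annotated starts of both genes are shown because these subunits went opposite ways, with capitals on matches, on either strand, to boxes that factors of muscle and synapse are known to bind. The E box of myogenic factors was searched as CAGCTG and also as CAGGTG with its reverse complement CACCTG. The N box of synaptic genes was searched as CCGGAA. They are RefSeq sequences of the build GRCm38.p6, not of the build mm9 of the array annotation, and both lie on the minus strand, at chr2:73580339-73580588 and chr11:70619195-70619444.
Chrna1: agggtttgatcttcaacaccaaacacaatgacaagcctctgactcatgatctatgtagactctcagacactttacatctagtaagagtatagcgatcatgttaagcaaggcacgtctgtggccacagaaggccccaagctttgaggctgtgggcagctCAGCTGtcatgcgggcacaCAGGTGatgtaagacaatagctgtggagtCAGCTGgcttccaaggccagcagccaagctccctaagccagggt
Chrne: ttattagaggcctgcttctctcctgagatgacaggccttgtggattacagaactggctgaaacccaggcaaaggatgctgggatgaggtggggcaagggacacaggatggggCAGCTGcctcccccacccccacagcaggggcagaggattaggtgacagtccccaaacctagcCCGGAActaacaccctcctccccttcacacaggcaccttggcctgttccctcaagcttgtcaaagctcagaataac

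The Chrna1 promoter held CAGCTG beginning 92 and 44 bases before the start and CAGGTG at 73 bases. That of Chrne held CAGCTG at 138 bases and CCGGAA at 76 bases. An E box of these letters was present in 27.7% of all 32851 mouse promoters of this length, in 6 of 16 promoters (37.5%) found for 12 of the 17 junction genes, and in 6 of 17 (35.3%) found for 11 of the 14 genes of the denervation list. The N box was in 12.0% of all promoters, in 1 of the 16 junction promoters (6.2%), that of Chrne, and in 3 of the 17 denervation promoters (17.6%). A match describes the letters and not binding.

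Other junction genes fell. Ache, the acetylcholinesterase that ends the nerve signal, was at 6.82, 7.63, 7.57, 7.60 and 6.77 at 4 months and at 4.36, 6.54, 4.77, 5.15 and 5.60 at 28 months. The groups did not overlap, the fall was 1.99 ± 0.24 (adjusted p = 1.52e-08), and it was 1.54 without the 6JA mice (adjusted p = 0.0289). Most of it was present at 18 months, with -1.54 between 4 and 18 months and -0.45 between 18 and 28 months. The scaffold gene Rapsn, which clusters the receptors, fell by 0.66, and Dok7, the activator of the receptor kinase, fell by 0.42. Neither passed in the 10 arrays alone (adjusted p = 0.194 and 0.109). Musk, the receptor kinase itself, was at 8.24 to 8.87 at 4 months and 8.14 to 8.60 at 28 months and did not pass (adjusted p = 0.631).

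Of 14 genes that follow loss of the nerve in rodents, 6 rose and 3 fell (median 0.20). Besides Sln these were Ankrd1, a stretch and stress protein of the sarcomere and nucleus, Gadd45a, a stress gene that is raised in denervated mouse muscle, and Cdkn1a, the cell cycle inhibitor p21. Ankrd1 was at 6.03, 5.86, 5.34, 4.30 and 3.95 at 4 months and at 7.12, 8.68, 7.44, 6.51 and 9.36 at 28 months. Gadd45a was at 7.45, 8.06, 8.85, 8.42 and 8.25 and then at 10.26, 10.14, 9.21, 9.35 and 10.23. Neither gene overlapped between the ages, and replicate 1 was the highest 4-month array for Ankrd1 and the lowest for Gadd45a. Ankrd1 rose by 2.73 ± 0.33 (adjusted p = 2e-08), with -0.51 up to 18 months and 3.23 after, and Gadd45a by 1.63 ± 0.32 (adjusted p = 0.000247), with -0.15 and 1.78. Without the 6JA mice Gadd45a kept its call (2.39, adjusted p = 0.0117) and Ankrd1 lost it (1.80, adjusted p = 0.0674). Runx1, a transcription factor of denervated muscle, rose by 1.04, and Ampd3, the AMP deaminase, by 0.74. The members that went down were Myod1, Fgfbp1 and Hdac4.

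Myod1, the myogenic factor of muscle cell commitment, is known to rise in denervated rodent muscle. Here it was at 7.62, 7.99, 7.58, 8.54 and 7.89 at 4 months and at 5.17, 7.13, 7.45, 6.84 and 6.16 at 28 months. All old arrays lay below all young ones, replicate 1 at 28 months being the lowest. The fall was 1.37 ± 0.25 (adjusted p = 6.86e-05), it was 1.03 without that array (adjusted p = 0.00133), and it did not pass in the 10 arrays alone (adjusted p = 0.0517) or without the 6JA mice (adjusted p = 0.19). Myog, myogenin, another factor raised by denervation, changed by -0.11 (adjusted p = 0.747), with 4.76 to 5.38 at 4 months and 4.47 to 5.66 at 28 months. Fgfbp1, which protects the junction in mice, fell by 0.69, and the histone deacetylase gene Hdac4 fell by 0.61.

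Contractile genes of slow fibers were higher at 28 months: 8 of 10 measured members rose and 0 fell, with a median change of 1.72. Myh7, the slow myosin heavy chain, was at 5.78, 4.13, 7.46, 5.11 and 3.36 at 4 months and at 8.95, 5.29, 7.20, 9.03 and 4.53 at 28 months. Tnnc1, slow troponin C, was at 5.93, 3.93, 7.08, 5.73 and 3.28 and then at 9.08, 5.93, 8.30, 9.17 and 5.08. Both spread widely within an age and overlapped between ages, and on both the arrays ranked alike, with replicate 5 lowest in each group. The changes were 1.83 ± 0.65 for Myh7 (adjusted p = 0.0397) and 2.32 ± 0.68 for Tnnc1 (adjusted p = 0.0132). Myoz2, a Z-disc protein of slow fibers, was the only member without overlap, at 5.57 to 8.06 and 8.17 to 9.37, and it rose by 2.06 ± 0.48 (adjusted p = 0.00172). These calls rested on the spread over all tissues: with the 10 muscle arrays alone 1 of the 10 passed, without the 6JA mice 0, and without replicate 1 at 28 months 3 (median 1.29). Fast fiber genes gave no such shift, with 0 of 12 called and a median of -0.09, and Myh2, the fast myosin of oxidative fibers, changed by 0.44.

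**Figure D2:**
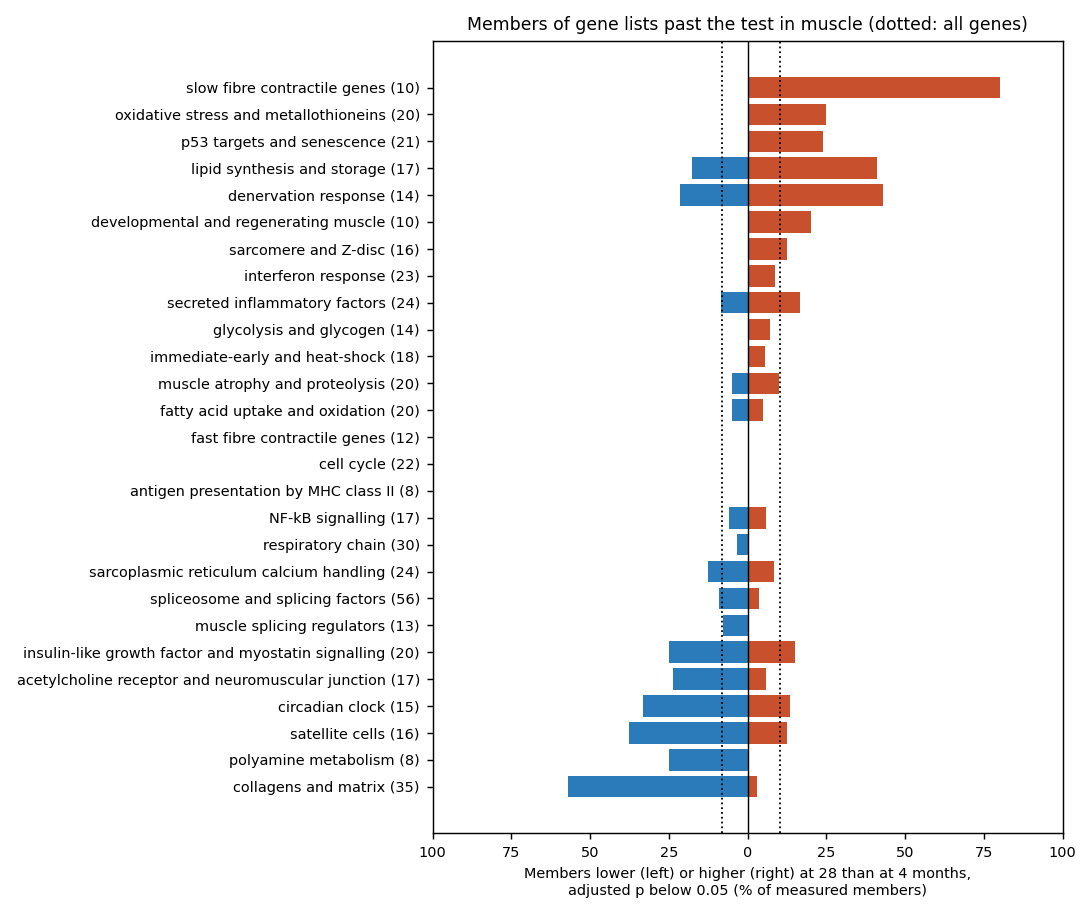
Percent of the measured members of each gene list (number in brackets) that were lower (blue, left) or higher (red, right) at 28 than at 4 months, at an adjusted p below 0.05. Dotted lines give the same for all genes, 8.26% lower and 10.3% higher. Slow fiber genes reach 8 of 10 on the right and collagens and matrix 20 of 35 on the left.

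Among genes that set muscle growth, receptors and binding proteins differed in direction. Mstn, myostatin, which holds back muscle growth, was at 10.33, 10.29, 10.46, 10.34 and 10.24 at 4 months and at 9.44, 9.56, 9.20, 9.17 and 9.37 at 28 months. These groups were far apart beside their spread, yet the difference of -0.98 did not pass in the fit over all arrays (SE 0.89, adjusted p = 0.453). In the 10 muscle arrays alone it passed (SE 0.10, adjusted p = 0.00123), since Mstn varied more within other tissues. Acvr2b, the receptor to which myostatin binds, fell by 0.92 ± 0.13 (adjusted p = 3.68e-07), with 5.33 to 6.17 at 4 months and 4.21 to 5.44 at 28 months, and it passed without the 6JA mice as well (adjusted p = 0.0101). Of 20 genes of insulin-like growth factor and myostatin signaling 3 rose and 5 fell (median -0.15), in the 10 arrays alone 1 rose and 3 fell, and without the 6JA mice 0 rose and 1 fell. Among these, Ltbp4, which binds latent TGF-beta, fell by 1.03 without overlap, and Igfbp4, a binding protein of the growth factor, rose by 0.99, a call lost without the 6JA mice (0.14, adjusted p = 0.923). Of 20 atrophy and proteolysis genes 2 rose and 1 fell. Gabarapl1, an autophagy protein, was at 6.07, 7.27, 7.33, 7.27 and 6.48 and then at 8.93, 7.76, 7.39, 8.32 and 8.20, a rise of 1.24 ± 0.25 that held without the 6JA mice (2.05, adjusted p = 0.00248). Fbxo32, the ubiquitin ligase atrogin-1, changed by 0.19 and did not pass.

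Of 16 satellite cell genes 2 rose and 6 fell (median -0.19). Without replicate 1 at 4 months 1 rose and 3 fell, and in the 10 arrays alone 0 rose and 3 fell. Chodl, a membrane lectin that marks quiescent satellite cells and some nerve cells in mice, was at 5.59, 5.96, 5.68, 6.37 and 5.57 at 4 months and at 3.68, 4.49, 3.69, 4.08 and 4.48 at 28 months. The groups were more than 1 apart at their nearest arrays. Chodl fell by 1.75 ± 0.15 (adjusted p = 1.12e-12), and by 1.51 without the 6JA mice (adjusted p = 0.000421). Spry1, which keeps satellite cells quiescent in mice, was at 7.39, 6.83, 6.69, 6.44 and 6.51 and then at 5.59, 5.63, 5.28, 5.63 and 5.94, again without overlap. Its fall was 1.16 ± 0.21 (adjusted p = 7.63e-05), and 1.78 without the 6JA mice (adjusted p = 0.00455). Pax7 and Myf5, the transcription factors that define these cells, fell by 0.28 and 0.29 from 4-month means of 4.31 and 3.86, and neither passed in the 10 arrays alone (adjusted p = 0.18 and 0.126). Pax3, their relative, rose by 0.41 within the dim range of 3.09 to 4.16 and passed neither in the 10 arrays alone (adjusted p = 0.114) nor in the 15 muscle arrays.

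Of 3 cell cycle inhibitors given here, Cdkn1a and Cdkn2c rose and Cdkn2a did not pass. Cdkn1a was at 6.53, 4.32, 4.45, 4.38 and 5.04 at 4 months and at 7.59, 7.71, 6.73, 6.87 and 8.52 at 28 months. The young array of replicate 1 lay between the other young arrays and the old ones. The rise was 2.54 ± 0.39 (adjusted p = 3.71e-06), of which 1.84 was present by 18 months, and without the 6JA mice it was 0.96 and did not pass (adjusted p = 0.492). Cdkn2c, the inhibitor p18, was at 6.39, 6.77, 6.41, 6.86 and 6.92 and then at 8.52, 8.08, 9.19, 8.90 and 7.78. It did not overlap, rose by 1.82 ± 0.29 (adjusted p = 7.32e-06), and passed without the 6JA mice (2.10, adjusted p = 0.022). Cdkn2a, the senescence locus of p16 and p19, was higher on every old array, at 4.81 to 5.09 against 4.50 to 4.80, but its difference of 0.32 did not pass (adjusted p = 0.0648). Of 21 genes of p53 targets and senescence 5 rose and 0 fell (median 0.19), 2 rose without replicate 1 at 28 months, and without the 6JA mice 1 rose and 1 fell. Of 22 cell cycle genes 0 passed.

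RNA of matrix genes was lower in muscle at 28 months. Deposited matrix was not measured here. In stained muscle sections of these animals the paper describes satellite cell activation and fibrosis between the fibers, most marked at 28 months. Among 35 genes of collagens and other matrix proteins, 20 were called lower and 1 higher, with a median of -0.86. Col1a1, a chain of type I collagen, was at 10.45, 9.91, 9.31, 9.39 and 10.20 at 4 months and at 7.29, 8.18, 6.61, 9.11 and 6.47 at 28 months. Replicate 4 was the old array closest to the young ones, here and in Col3a1, Col15a1 and Col6a2. The changes were -2.55 ± 0.53 for Col3a1, -2.32 ± 0.52 for Col1a1, -2.15 ± 0.44 for Col6a3, -2.12 ± 0.45 for Col1a2 and -2.04 ± 0.31 for Col15a1, a collagen of the basement membrane zone, and none of these 5 overlapped. Between 4 and 18 months they changed by -0.29 to 0.14, and between 18 and 28 months by -2.27 to -2.03. Hspg2, the basement membrane proteoglycan perlecan, fell by 1.61 and Loxl2, a collagen cross-linking enzyme, by 1.24. The 1 member that rose was Bgn, biglycan, by 0.52, which did not pass in the 10 arrays alone (adjusted p = 0.12). In the 10 arrays alone 17 of the 35 fell. Without the 6JA mice 2 did, Col15a1 (-2.32, adjusted p = 0.0198) and Col6a2 (-1.94, adjusted p = 0.0485), while the median of the list was -1.22. Of 17 fibroblast markers 2 fell and 0 rose, with a median of 0.07, which was -0.63 without the 6JA mice and -0.27 with the series as a term.

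Genes of the vessel wall fell too. Of 14 endothelial markers 9 fell and 0 rose (median -0.90), and their mean per array was 6.90 to 7.25 at 4 months and 6.02 to 6.59 at 28 months. In the 10 arrays alone 8 fell, with the 6JA series as a term 3 (median -0.77), and without the 6JA mice 2. Tie1, an endothelial receptor kinase, was at 7.09, 6.67, 6.92, 7.01 and 6.94 and then at 5.44, 5.53, 5.21, 5.49 and 5.46. Both groups were tight and more than 1 apart, and the fall of 1.50 ± 0.17 (adjusted p = 3.77e-09) was 1.66 without the 6JA mice (adjusted p = 0.000218). Cd93, a surface protein of endothelium that was not on the list, was at 7.83, 7.21, 7.87, 7.89 and 7.42 and then at 5.31, 5.78, 4.58, 6.34 and 5.73. It fell by 2.10 ± 0.25 (adjusted p = 1.53e-08) without overlap, 1.80 of it after 18 months. Robo4, an endothelial guidance receptor, fell by 0.89, Kdr, the main receptor for VEGF-A, by 1.20, and Flt1, another receptor for it, by 1.03. Vegfa, the ligand, which fibers produce, fell by 0.62.

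The cells that wrap vessels went the same way. Of 12 markers of smooth muscle and pericytes 5 fell and 0 rose (median -0.60), their mean being 7.56 to 7.99 at 4 months and 6.95 to 7.28 at 28 months. Without the 6JA mice 1 of the 12 fell (median -0.88). Notch3, the Notch receptor of pericytes, was at 6.73, 6.51, 6.50, 6.50 and 6.68 and then at 5.40, 5.21, 5.36, 5.62 and 5.19. The ages did not overlap. It fell by 1.23 ± 0.17 (adjusted p = 4.3e-07), and by 1.37 without the 6JA mice (adjusted p = 0.00766). Pdgfrb, the growth factor receptor of pericytes, fell by 1.29 and Kcnj8, a potassium channel subunit, by 1.35, both without overlap but not passing without the 6JA mice (adjusted p = 0.0566 and 0.133).

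**Figure D3:**
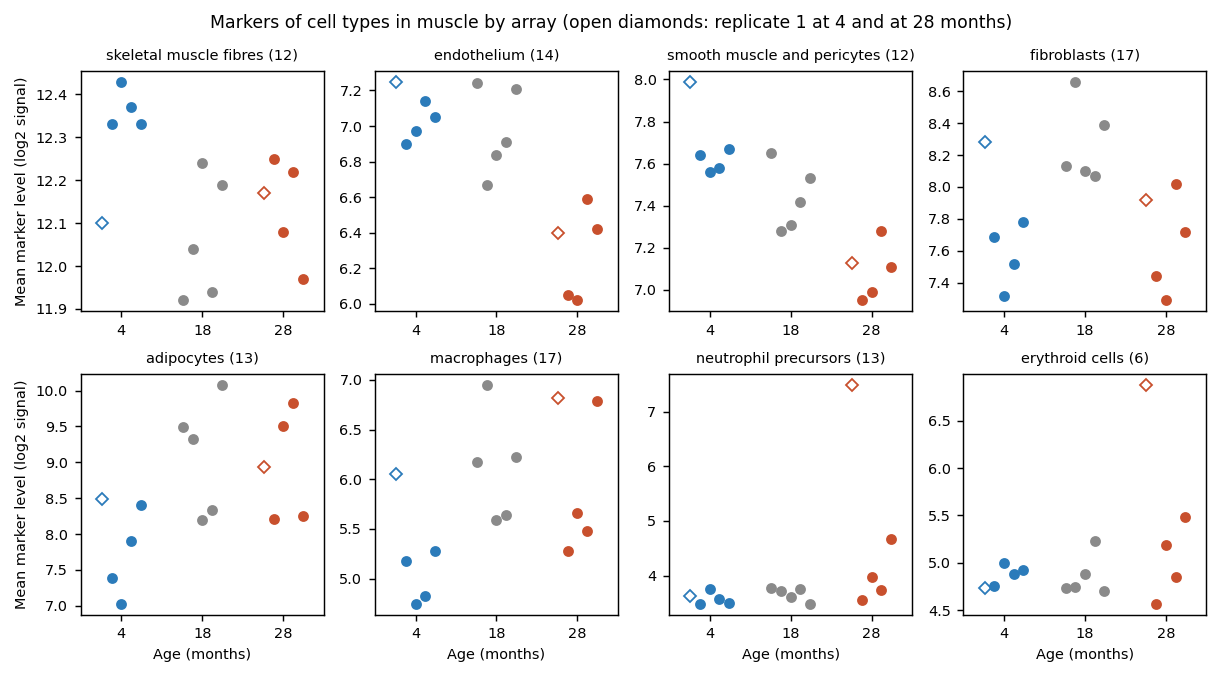
Mean log2 signal of marker lists (number of markers in brackets) on each muscle array at 4, 18 and 28 months, with open diamonds for replicate 1 at 4 and at 28 months. Endothelial and pericyte markers separate 4 from 28 months, fat cell and macrophage markers overlap, and neutrophil precursor markers are high on 1 array, at 7.49.

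Fat cell and lipid genes rose on part of the arrays. Of 13 fat cell markers 7 rose and 0 fell (median 1.03). Adipoq, the fat cell hormone adiponectin, was at 9.28, 6.58, 5.56, 7.65 and 8.43 at 4 months and at 10.41, 9.22, 10.84, 11.19 and 9.69 at 28 months. The highest young array, replicate 1, lay just above the lowest old array. The rise was 2.77 ± 0.55 (adjusted p = 0.000284), of which 2.68 was present at 18 months, and without the 6JA mice it was 0.99 (adjusted p = 0.651), with 0 of the 13 markers passing. Retn, the fat cell hormone resistin, rose by 2.31 without overlap. The mean of the markers was 7.03 to 8.49 at 4 months and 8.21 to 9.83 at 28 months.

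Beside them 7 of 17 genes of lipid synthesis and storage rose and 3 fell (median 0.23). In the 10 arrays alone 1 rose and 2 fell, without the 6JA mice 0 passed, and without replicate 1 at 28 months 7 rose and 1 fell. Acaca, the rate-limiting carboxylase of fatty acid synthesis, was at 7.69, 6.84, 6.63, 7.15 and 7.85 and then at 8.63, 8.75, 11.09, 10.45 and 8.08. Replicates 3 and 4 at 28 months were more than 1.5 above the rest, and the same 2 arrays were the highest for Elovl6, the fatty acid elongase (8.39 and 6.90), and Fasn, the fatty acid synthase (11.97 and 11.31). They were also the 2 arrays with the most fat cell marker signal, and the part of fat cells in the lipid genes was not tested. Acaca rose by 2.17 ± 0.47 (adjusted p = 0.000889) and Elovl6 by 2.43 ± 0.49 (adjusted p = 0.000348), neither passing without the 6JA mice (adjusted p = 0.321 and 0.185). Mlxipl, the carbohydrate-responsive regulator of this pathway, went the other way, from 7.08 to 7.20 at 4 months to 5.86 to 6.53 at 28 months, a fall of 1.01 ± 0.21 (adjusted p = 0.000398). Ppargc1b, a coactivator of mitochondrial genes, was at 5.89, 6.09, 6.39, 5.52 and 5.79 and then at 4.53, 5.21, 4.99, 5.16 and 4.83. It fell by 0.99 ± 0.14 without overlap, also without the 6JA mice (adjusted p = 0.0168). Of 30 respiratory chain genes 0 rose and 1 fell, Atp5j, a subunit of ATP synthase, by 0.73 ± 0.14, and the median was -0.03.

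Signal of immune cells differed between single animals. Of 17 macrophage markers 8 rose and 0 fell (median 0.65), but replicate 1 at 4 months had a marker mean of 6.05, within the 5.28 to 6.82 of the old arrays, whereas the other 4-month arrays had 4.75 to 5.28. C1qb, a complement gene of macrophages, was at 8.55, 6.95, 6.37, 6.52 and 7.58 and then at 9.44, 7.96, 8.41, 8.00 and 9.20. The rise of 1.41 ± 0.31 (adjusted p = 0.000854) was 0.05 without the 6JA mice (adjusted p = 0.981), and in the 10 arrays alone 0 of the 17 markers passed. Of 13 markers of neutrophil precursors 7 rose (median 0.88), and the marker mean was 7.49 on replicate 1 at 28 months against 3.56 to 4.67 on the other old and 3.49 to 3.76 on the young arrays. S100a8, a calcium-binding protein of neutrophils, was at 9.44 on that array and at 5.00 to 6.23 on the other old ones. Without that array 1 of the 13 passed, S100a8 at 0.82 (adjusted p = 0.0179), and the median was 0.23. The erythroid marker mean was also highest there, at 6.88 against 4.57 to 5.48. Of 12 B cell, 12 T cell and 8 MHC class II genes 0 passed.

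Igk-C, the constant region of the immunoglobulin kappa light chain, which antibody-forming cells make, was measured by 1 probe set. It was at 6.00, 6.09, 5.45, 4.76 and 3.52 at 4 months and at 10.75, 9.31, 9.18, 9.94 and 8.01 at 28 months. The ages did not overlap and the rise was 4.27 ± 0.64 (adjusted p = 2.87e-06), although markers of B cells as a list had a median change of 0.20. At 18 months it was already at 7.07 to 11.63, and without the 6JA mice the difference was 3.44 and did not pass (adjusted p = 0.0908). Cxcl13, the chemokine that draws B cells, was at 5.24, 3.61, 3.71, 4.08 and 4.71 and then at 10.02, 6.14, 7.89, 6.94 and 10.19, a rise of 3.97 ± 0.78 (adjusted p = 0.00024) that did not pass without the 6JA mice (3.00, adjusted p = 0.288). Of 24 secreted inflammatory factors 4 rose and 2 fell. Ifi47, an interferon-induced GTPase, rose by 2.20 ± 0.60 without overlap, 8.58 and 7.86 being its highest arrays, and the median of 23 interferon-responsive genes was 0.35 with 2 passing.

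Mt2, a metallothionein that binds zinc and copper and responds to stress hormones and metals, was at 9.89, 6.71, 5.99, 6.33 and 6.56 at 4 months and at 11.70, 11.78, 10.52, 10.40 and 9.85 at 28 months. Replicate 1 at 4 months fell within the old range and the other 4 young arrays lay more than 3 below it. The rise of 3.75 ± 0.58 (adjusted p = 5.54e-06) was therefore 0.96 without the 6JA mice (adjusted p = 0.678). Gsta3, a glutathione transferase, rose by 2.11 and Gpx1, a glutathione peroxidase, by 0.87, and neither passed without the 6JA mice (adjusted p = 0.237 and 0.336). Among young arrays, replicate 1 also had the highest mean of immediate-early and heat-shock genes, 7.35 against 5.88 to 6.14 on the other young arrays, and 1 of the 18 genes of that list passed.

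Several genes of the circadian clock fell. Per3, a period gene of the circadian clock, was at 6.63, 6.55, 6.40, 6.56 and 6.88 at 4 months and at 4.94, 4.75, 5.19, 5.18 and 4.99 at 28 months. All 5 old arrays lay more than 1 below all young ones, replicate 1 included. Per3 fell by 1.59 ± 0.25 (adjusted p = 5.04e-06), and by 1.62 without the 6JA mice (adjusted p = 0.0339). Dbp, a clock output factor that binds D boxes, was at 9.83, 9.92, 10.04, 9.93 and 9.92 and then at 7.44, 7.49, 8.79, 8.59 and 7.31, a fall of 2.01 ± 0.48. Its relative Hlf fell by 1.24, also without the 6JA mice (-1.61, adjusted p = 0.0429), Bhlhe41, a repressor of the clock, by 1.47 and Per2 by 1.10. Arntl, the activator at the center of the clock, and its partner Npas2 rose by 1.06 and 0.84. In all 2 of 15 clock genes rose and 5 fell (median -0.48). With the 10 muscle arrays alone 0 rose and 7 fell, and without the 6JA mice 0 rose and 2 fell, so that the rise of Arntl and Npas2 was called in neither. Most of this was present at 18 months, with -1.28 for Per3, -2.22 for Dbp and 1.47 for Arntl between 4 and 18 months and -0.31, 0.21 and -0.40 after. The hour of dissection was not given in the sources used here, so age and time of day cannot be told apart for these genes. The Per3 promoter is shown because its D boxes are the sites that Dbp and Hlf recognize, with TTATGTAA in capitals, beginning 205 and 158 bases before the start (chr4:151044666-151044915, minus strand, RefSeq, GRCm38.p6).
Per3: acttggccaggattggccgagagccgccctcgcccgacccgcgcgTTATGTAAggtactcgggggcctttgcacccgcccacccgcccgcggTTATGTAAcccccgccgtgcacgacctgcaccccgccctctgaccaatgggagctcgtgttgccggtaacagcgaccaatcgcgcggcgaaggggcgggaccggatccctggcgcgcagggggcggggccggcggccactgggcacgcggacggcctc

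A D box of these letters, on either strand, was in 0.8% of all promoters and, among 18 promoters found for 13 of the 15 clock genes, in that of Per3 alone. The E box of clock factors, CACGTG, was in 5 of the 18 (27.8%) and in 6.0% of all.

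Further large changes were in genes of other kinds. Egln3, an oxygen-sensing prolyl hydroxylase, was at 6.51, 6.33, 7.08, 6.11 and 5.16 and then at 9.45, 9.06, 8.69, 8.44 and 9.63. It rose by 2.81 ± 0.33 (adjusted p = 1.52e-08) without overlap, and by 2.55 without the 6JA mice (adjusted p = 0.00752). Ky, a protein of the fiber whose loss causes spinal curvature in mice, was at 10.27, 10.10, 10.04, 10.02 and 10.05 and then at 6.71, 9.10, 7.87, 8.79 and 7.49. The young arrays were within 0.3 of each other and the old ones spread over more than 2, with a fall of 2.11 ± 0.37 (adjusted p = 3.94e-05). Acsm3, a medium-chain acyl-CoA synthetase, rose by 3.22 ± 0.46, Alb, serum albumin, by 2.95 ± 0.68, and the unnamed gene 6530401D17Rik by 2.63 ± 0.42. Acsm3 and Alb lost their call without the 6JA mice, and 6530401D17Rik kept it (3.02). Pcgf1, a Polycomb protein, fell by 2.22 ± 0.82 (adjusted p = 0.0497), a call lost when any of 8 of the 10 arrays was left out. Smox, the spermine oxidase, went from 11.47 to 11.59 at 4 months to 8.68 to 10.77 at 28 months, and 0 of 8 polyamine genes rose and 2 fell. Scx, the transcription factor of tendon, rose by 1.30 ± 0.20, and Tnnt2, the troponin T of heart and embryonic muscle, by 0.90 ± 0.14, both without overlap. The call of Scx was lost without the 6JA mice, and that of Tnnt2 was kept (1.01). Of 10 genes of developmental and regenerating muscle 2 rose and 0 fell.

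To ask which of these changes were greater or smaller in muscle than elsewhere, the muscle change was set against the mean of the changes in skin and bone at the same ages. At 28 months the same 5 mice gave muscle, skin and bone, and the fit took all arrays as independent. At 4 months 6JA mice were 4 of the muscle animals, fewer in skin and absent from bone. Tissue and identifier series therefore cannot be fully told apart in this difference. The difference was positive in 1387 genes (8.76%) and negative in 1034 (6.53%), and in 1524 and 1122 with mouse as a random block. Without the 6JA mice these counts were 83 and 134. With single arrays left out the positive count ran from 650, without replicate 3 at 28 months, to 2264, without replicate 5 at 28 months, and was 895 without replicate 3 at 4 months and 903 without replicate 1 at 28 months. It passed for Sln, at 4.28 ± 0.80 (adjusted p = 0.000243), although Sln changed by 2.60 in skin and 1.27 in bone, and the fiber markers had a 4-month mean of 9.45 in skin and 7.54 in bone. The smallest adjusted p-values, by which these genes were chosen, were those of Chodl (-1.67 ± 0.18, adjusted p = 1.88e-08), Slc26a6, an anion exchanger (-1.61 ± 0.18), Tnfrsf21, the death receptor DR6 (-1.94 ± 0.22), 3632451O06Rik (2.45 ± 0.30) and Serac1, an enzyme of phospholipid remodeling (-1.19 ± 0.15). Cd93 differed by -2.11 ± 0.30, as it changed by 0.30 in skin and -0.27 in bone, and so did Cdkn1a (2.41 ± 0.47), Chrne (-1.21 ± 0.23) and Igk-C (3.81 ± 0.78). Sln, Cd93 and Igk-C were chosen for the size of their muscle change, which is a term of this difference. Not all named genes kept the call of their difference without the 6JA mice. The difference of Cxcl13 did not pass, with 3.97 in muscle, 4.13 in skin and 3.87 in bone, a difference of -0.03 ± 0.95. Nor did those of the collagens: Col3a1 changed by -2.55 in muscle, -2.67 in skin and -2.50 in bone, and the differences of Col1a1, Col1a2, Col3a1, Col6a3 and Col15a1 were -0.65 to 0.03 with an SE of 0.38 to 0.64.

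**Figure D4:**
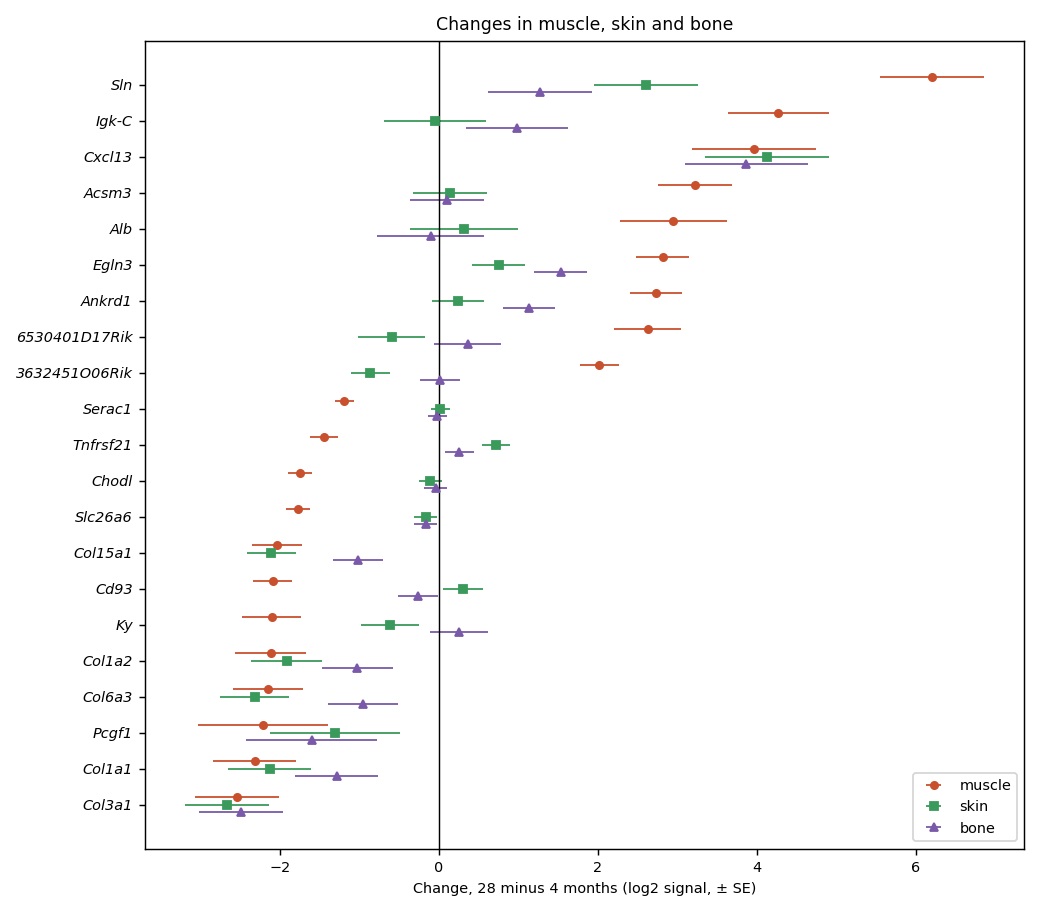
Change between 4 and 28 months (log2, ± SE, 5 arrays per age and tissue) in muscle (circles), skin (squares) and bone (triangles) for the highest and lowest changes in muscle and the 5 genes with the smallest adjusted p for the difference. Chodl, Slc26a6, Serac1 and Cd93 lie near 0 in skin and bone, whereas the 3 values of Cxcl13 and of Col3a1 lie within 1 SE of each other.

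Alternative splicing (AS) was taken as a change with age of single probe sets against the mean of their gene, in genes whose mean level, over the probe sets of that test and the 10 muscle arrays alone, had an unadjusted p of 0.05 or more. Of 9412 genes that could be tested 3021 were called (32.1%). Of these, 141 nevertheless passed limma's test of level over all arrays, and with removal by limma's unadjusted p 2832 genes were called, without Vps41. Limma's diffSplice F-test called 1384, and without the 6JA mice 110 remained, so the count depends on the method and on those mice. Probe sets whose arrays did not overlap between the ages made up 7.34% of those in AS genes and 1.65% in the other genes tested. The AS genes were selected on the same arrays and values, so this difference is a description and no test of the calls. The leading gene was Trrap, a scaffold of histone acetyltransferase complexes, and in it the probe set 4796215. Against the gene mean it was at -2.76, -2.62, -2.89, -2.77 and -3.40 at 4 months and at -1.18, 0.40, -0.75, -0.68 and 1.10 at 28 months. The 18-month arrays, at -3.35 to -2.25, lay with the young ones. In Fkbp9, Vps41 and AU040320, a chaperone, a trafficking protein and an unnamed gene, the leading probe set rose likewise, without overlap and with the 18-month mean within 0.4 of the 4-month mean. Other probe sets moved by more than 1 in the same direction in Trrap (5228240 by 2.38 and 5167609 by 1.77), Vps41 (5351241 by 2.11) and AU040320 (4572517 by 1.89). In the same genes others moved by more than 1 the opposite way: 5559309 in Trrap (-1.02), 5482214 in Vps41 (-1.15) and 5028068 in AU040320 (-1.45). For Trrap the leading probe set was at 0.53 to 1.45 in bone of 4-month mice, spread from -3.37 to 2.61 in skin of 4-month mice and was at 1.45 to 2.18 in skin of 28-month mice. The other 3 genes shared this pattern. Their bone means at 4, 18 and 28 months were -1.28, -1.26 and -0.89 (Vps41), -0.14, -0.66 and -0.63 (AU040320) and 0.06, -0.18 and -0.21 (Fkbp9). In all 4 genes bone of every age lay nearer to muscle at 28 than at 4 months, and skin means rose between 18 and 28 months. Whether these are separate events was not tested. Without the 6JA mice 1 array remained at 4 months, and the named AS genes that lost their call were more than those marked below.

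Gria4, a glutamate receptor subunit, had a mean level of 3.43 and 3.47 at the 2 ages, below the lower quartile of gene values, so that its splicing value sets 1 probe set against a dim gene mean. Its probe set 4646419 went the other way, from 1.75, 5.37, 4.17, 4.92 and 4.28 to 0.95, 1.30, -0.52, 0.18 and 0.17. Replicate 1 at 4 months lay next to the old arrays, as did 2 of the 18-month arrays (1.88 and 0.29), and the call was lost without the 6JA mice. Of 19 splice-variable muscle genes that could be tested 12 were AS, beside 32.1% of all genes tested. Among the 12, Cacna1s, Mef2c and Tpm1 had 0 probe sets without overlap between the ages. Probe sets per gene ran from 9 in Tpm1 to 104 in Ryr1, and whether their number accounts for the share was not tested. Bin1, which shapes the T-tubules of the fiber, had a probe set (5608701) that went from -3.24 to -1.99 at 4 months to -5.75 to -3.64 at 28 months, with no overlap. In Camk2d, a calcium-dependent kinase, Dmd, dystrophin, Insr, the insulin receptor, and 8030451F13Rik, now named Mybpc1, the leading probe sets overlapped between the ages, and the first 3 of these lost their call without the 6JA mice. Lmna, the gene of lamin A, was AS as well (F-test, adjusted p = 0.00194). Its probe set 5214105 went from -0.43 to 0.16 at 4 months to -1.34 to -0.67 at 28 months. Wbp11, a splicing factor, was AS too (F-test, adjusted p = 0.0421), but its leading probe set 5525740 overlapped between the ages. Replicate 1 at 4 months was at -0.13 and the other 4-month arrays at -1.21 to -1.02, against -0.64 to 0.56 at 28 months. Nfkb1, Cdkn2a and Dhx15 were not tested because the unadjusted p of their mean level was below 0.05. Of 56 genes of the spliceosome and splicing factors 2 rose and 5 fell, among the latter Tia1 (-0.83 ± 0.17) and Sfrs2 (-0.54 ± 0.14), and of 13 muscle splicing regulators 1 fell.

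**Figure D5:**
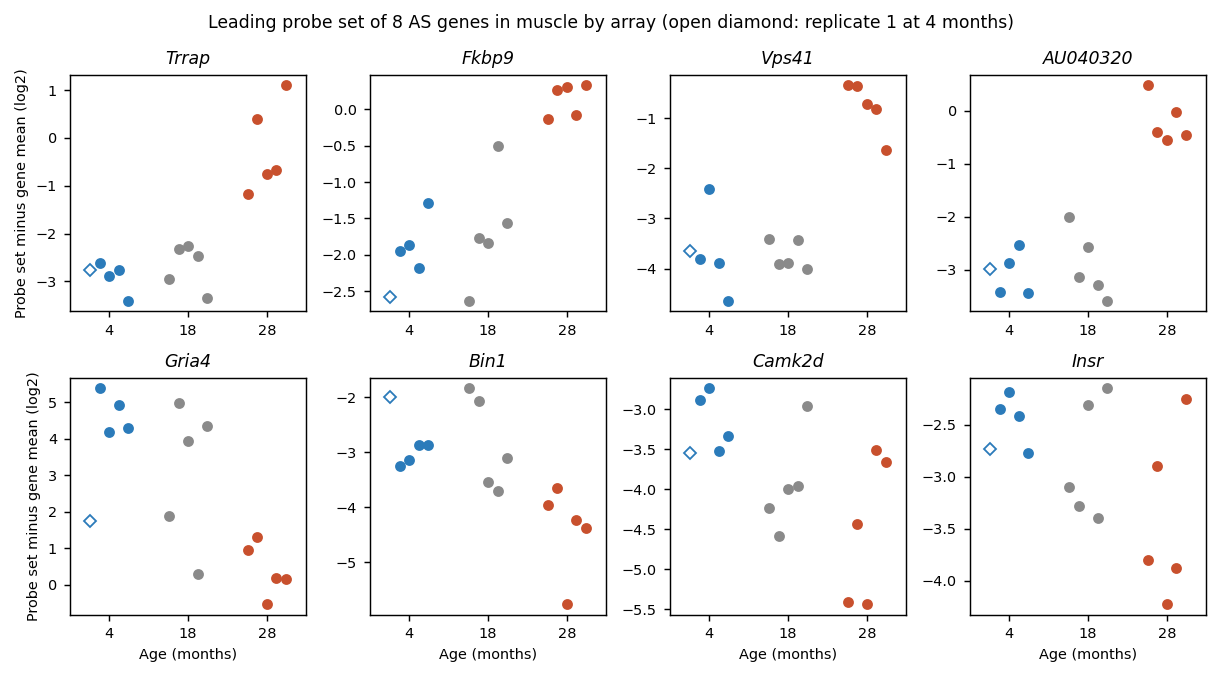
Leading probe set of 8 AS genes relative to the mean of its gene (log2, vertical axes) on each muscle array at 4, 18 and 28 months, with an open diamond for replicate 1 at 4 months. The probe sets of Trrap, Fkbp9, Vps41 and AU040320 are higher on all 28-month arrays, those of Gria4 and Bin1 are lower, and those of Camk2d and Insr overlap.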

How the data were processed

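RNA of mouse tissues was hybridized to Affymetrix Mouse Exon 1.0 ST arrays. The values deposited by the authors are log2 signals of core probe sets, background-adjusted by RMA with a GC correction, quantile-normalized and summarized by median polish in Partek, with annotation of the build mm9. Arrays carry no read depth, so the number of arrays limits the precision. Of 194293 probe sets, 179614 named 1 gene symbol, 1331 several and 13348 none in the platform annotation. The gene value was the mean over the probe sets with 1 symbol, which gave 15830 genes with a median of 9 probe sets.

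Group means of all 65 arrays (13 groups) were fitted with limma 3.58.1 in R 4.3.3, and the spread was shared over all groups. The contrast was muscle at 28 minus 4 months, with Benjamini-Hochberg adjusted p below 0.05, and for DE a change of at least 1 on the log2 scale. The difference between tissues was the muscle change minus the mean of the skin and bone changes. AS was an F-test of age by probe set on the 10 muscle arrays once the mean of the gene on each array had been subtracted, with probe sets of mean at least 3, at least 3 probe sets per gene, and removal of genes whose mean level in these 10 arrays had an unadjusted, unmoderated p below 0.05. The scripts were tested on simulated data. The 4- and 28-month groups shared 0 mice, and correlations of same-numbered arrays were -0.09 to 0.21, so the replicate numbers were not taken as pairs.

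The genes and the 43 lists were chosen with earlier results of these data known. Genes named by rule were the 8 highest and 8 lowest DE changes without overlap, up to 3 members per list with the smallest adjusted p, 5 AS genes overall and 5 among splice-variable muscle genes, the 5 smallest adjusted p-values for the difference between tissues, and 13 genes always given. Further members of the lists were named after their values were seen, as were the N box, the D box and the E box of clock factors. Alternatives covered the arrays fitted, the summary and filters of probe sets, normalization, single arrays left out, and the 6JA mice left out or given a term.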

Additional observations from a re-analysis of the deposited data

Results flagged for a closer look

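Of 226 groups of 5 arrays checked for the named genes, 14 held an array far from the others by Dixon's criterion, where chance gives about 1 in 20 groups. Replicate 1 at 4 months was the array in 8 of them. It was high for Sln (3.25, the nearest array at 2.91), C1qc (7.09, nearest 5.36), Mt2 (9.89, nearest 6.71), Eda2r (8.60, nearest 7.42), Cxcl12 (7.96, nearest 7.49), Chrng (3.82, nearest 3.53) and Wbp11 (8.45, nearest 7.97). It was low for Traf2 (6.47, nearest 7.19). Replicate 1 at 28 months was high for Prg2 (6.95, nearest 4.78), S100a8 (9.44, nearest 6.23) and Retnlg (8.46, nearest 4.59), genes of eosinophils and neutrophils. Replicate 4 at 4 months was low for Fbln2 (7.94, nearest 8.24), replicate 3 at 28 months for Tie1 (5.21, nearest 5.44) and replicate 2 at 28 months for Igfbp4 (9.18, nearest 9.90).

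Of 33 named genes, 18 had a difference between muscle and skin and bone at an adjusted p below 0.05 (limma), as had 2421 of all 15830 genes. Without the 6JA mice, where 1 muscle array remained at 4 months, part of these calls was lost. Chodl, Slc26a6, Tnfrsf21, 3632451O06Rik and Serac1 were named for the smallest adjusted p of this difference, so their passing is a description. Sln, Igk-C, Acsm3, Alb, Egln3, Ankrd1, 6530401D17Rik, Ky and Cd93 were named for the size of their muscle change on these arrays. That change is a term of the difference, so their passing is a description too. The share among the named genes is therefore not to be set against that of all genes. The muscle change was the more positive for Sln (4.28), Igk-C (3.81), Acsm3 (3.11), Alb (2.85), 6530401D17Rik (2.74), 3632451O06Rik (2.45), Cdkn1a (2.41), Ankrd1 (2.04), Egln3 (1.67) and Chrna1 (0.76). It was the more negative for Cd93 (-2.11), Tnfrsf21 (-1.94), Ky (-1.92), Chodl (-1.67), Slc26a6 (-1.61), Chrne (-1.21), Serac1 (-1.19) and Nfkb1 (-0.50).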

How the results depend on the processing

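The count of DE genes that were higher was 275 as reported, 150 with the 15 muscle arrays, 155 with the 10, 177 with the replicate block in the 10, 611 with probe sets of mean at least 5, 69 without the 6JA mice and 105 with the series as a term. The count that was lower was 181 as reported, 316 with the median over probe sets, 299 with probe sets of mean at least 5 and 103 without the 6JA mice. The higher share of DE genes, 60.3% as reported, was 47.8% with 15 arrays, 49.2% with 10 and 40.1% without the 6JA mice. AS genes numbered 3021 as reported, 5102 with no removal of genes whose level changed, 1613 and 1384 by limma's diffSplice (simes and F), and 110 without the 6JA mice. The difference from skin and bone was positive in 1387 genes as reported, in 2448 against bone alone, in 832 with the median over probe sets, in 384 of the genes of mean at least 5 and in 83 without the 6JA mice, and negative in 134 rather than 1034 there. With single arrays left out the counts were 218 to 359 DE higher, 153 to 260 DE lower, 2007 to 3810 AS, 650 to 2264 positive and 696 to 1367 negative differences. Those moved by over 1.5 times were AS without 4-month replicate 2 (2007) and positive differences without 4-month replicate 3 (895) or 28-month replicates 1 (903), 3 (650) or 5 (2264). Signs turned for Gria4 (-1.67 with probe sets of mean at least 5), Cma1 (-0.11 with the median, -0.13 without the 6JA mice), and C1qc (-0.18), Cd68 (-0.22) and Ripk1 (-0.040) without the 6JA mice. Over all alternatives, 2306 values of single genes kept their call or lack of one, 366 lost the call, 10 gained it and 6 were counted as turned. The 2306 may include turned signs of genes called in neither fit. The cause was not tested, apart from the fewer arrays or probe sets that a setting leaves. The settings without the 6JA mice for AS and for the difference between tissues were chosen after seeing the data. Replicate 1 alone stood for muscle at 4 months in every fit without the 6JA mice. Mice 6JA2 and 6JA3 also gave skin arrays at 4 months, so leaving out the series takes arrays from that skin group too.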
